A study of Mus musculus with 8 samples.

Results

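Accessible chromatin was examined around 9 genes that act in the primitive streak and the mesoderm of the mouse embryo, in a series made on pluripotent cells. The genes were T, Mixl1, Gsc, Mesp1, Msgn1, Tbx6, Meox1, Pax2 and Kdr. They were chosen by name, with earlier results of this series known. Their regions were those that overlapped the gene, or 50 kb on either side of it, by at least 1 bp. Of the 76872 regions of the series, 64 met this rule, and the 9 genes stand among 21887 protein-coding genes of the annotation. The assay was ATAC-seq, in which the transposase Tn5 cuts and tags open DNA. All groups were mouse induced pluripotent stem cells of 1 clonal line that carries the FUCCI2 cell cycle reporter, grown on irradiated feeder cells in medium with FBS, LIF and 2 inhibitors, of MEK and of GSK3. Cells held in mitosis by nocodazole (200 ng/ml for 6 hours) and shaken off gave the arrested group, the same treatment with 1 or 3 hours in fresh medium gave the released groups, and asynchronous cells had no nocodazole. Each of the 4 groups had 2 libraries, A and B, of 50000 cells each.

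The analysed file lists the regions of the whole series together, as a chromosome, a start and an end, with no value for a library. A gene's regions are therefore described as present or not in the list, and arrested, released and asynchronous cells cannot be told apart. The depth of the libraries is unknown, so the absence of a region says only that none was listed. A site open in few cells and a site weakly open in many cannot be told apart either. The cell type was read from 2 marker lists. Of 6 pluripotency markers, 5 had a region within 1 kb of an outer limit of the gene, and their median was 14 regions within 50 kb. Of 8 markers of fibroblasts such as the feeder cells, 1 had a region at a limit, Col1a1, and the median was 3. Over all protein-coding genes, 62.0% had a region at a limit and the median was 7. The markers were chosen with earlier results of this list known. The part of feeder cells in the regions near the 9 genes was not tested.

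The primitive streak is the site at which cells of the epiblast leave the outer layer of the embryo and become mesoderm and endoderm, in answer to Wnt, Nodal and BMP signals. T (Brachyury), Mixl1 and Gsc are transcription factors of the streak. Mesp1 marks the first mesoderm that leaves it, Msgn1 and Tbx6 act in the presomitic mesoderm, Meox1 in the somites and Pax2 in the intermediate mesoderm from which the kidney forms. Kdr encodes a receptor for VEGF, found on mesoderm with vascular and blood potential and on endothelium. Pluripotent cells are known to keep most such genes silent or low while Polycomb complexes hold many of their promoters.

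The sequences of the covered starts are shown first, because they are the places at which these genes and the list of regions meet most directly. Annotated starts were taken from RefSeq promoters of build GRCm38.p6, each of 250 bases before the start and 50 from it on. They were found for 7 of the 9 genes, with 3 starts for Pax2 and 1 for each of T, Gsc, Mesp1, Msgn1, Tbx6 and Kdr. Mixl1 and Meox1 had no entry. A region lay on an annotated start of 4 of the 7 genes, Gsc, Mesp1, Pax2 and Kdr, against 53.3% of the 17492 protein-coding genes with a start. The promoters are given 5′ to 3′ in the direction of the gene, and capitals mark the bases inside a region of the list.
Gsc (chr12:104473187-104473486, minus strand): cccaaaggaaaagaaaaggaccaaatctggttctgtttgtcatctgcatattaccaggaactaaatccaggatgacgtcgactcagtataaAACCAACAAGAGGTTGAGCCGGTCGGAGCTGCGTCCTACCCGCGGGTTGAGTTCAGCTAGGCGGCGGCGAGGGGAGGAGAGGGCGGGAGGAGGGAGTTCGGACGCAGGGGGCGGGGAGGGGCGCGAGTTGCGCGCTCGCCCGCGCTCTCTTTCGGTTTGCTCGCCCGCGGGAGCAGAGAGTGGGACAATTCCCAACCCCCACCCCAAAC
Mesp1 (chr7:79793541-79793840, minus strand): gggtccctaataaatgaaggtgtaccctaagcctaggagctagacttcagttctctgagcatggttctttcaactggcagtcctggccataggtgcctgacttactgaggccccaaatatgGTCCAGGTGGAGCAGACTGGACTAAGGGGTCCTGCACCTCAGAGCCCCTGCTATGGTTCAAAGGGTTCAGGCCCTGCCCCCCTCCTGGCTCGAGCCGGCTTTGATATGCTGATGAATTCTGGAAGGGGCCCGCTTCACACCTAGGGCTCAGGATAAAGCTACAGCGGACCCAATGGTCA
Pax2, start 2 (chr19:44755502-44755801, plus strand): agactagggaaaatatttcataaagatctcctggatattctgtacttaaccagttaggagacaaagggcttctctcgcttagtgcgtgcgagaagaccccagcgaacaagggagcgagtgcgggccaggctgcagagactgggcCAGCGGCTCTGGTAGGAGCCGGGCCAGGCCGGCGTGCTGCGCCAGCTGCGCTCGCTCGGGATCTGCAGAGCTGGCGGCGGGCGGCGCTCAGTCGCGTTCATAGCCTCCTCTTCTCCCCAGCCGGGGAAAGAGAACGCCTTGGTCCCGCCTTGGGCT
Kdr (chr5:75978406-75978705, minus strand): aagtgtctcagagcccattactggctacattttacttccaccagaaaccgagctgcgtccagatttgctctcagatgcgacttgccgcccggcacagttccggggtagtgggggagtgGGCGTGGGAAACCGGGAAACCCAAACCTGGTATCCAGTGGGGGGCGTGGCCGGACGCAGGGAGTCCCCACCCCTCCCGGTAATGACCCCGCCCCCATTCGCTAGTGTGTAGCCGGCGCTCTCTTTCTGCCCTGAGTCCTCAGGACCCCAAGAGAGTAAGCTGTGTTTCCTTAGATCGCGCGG

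In each of these 4 promoters the region took in the start and the bases after it, and ended before the far upstream edge of the window. It covered 209 of the 300 bases at Gsc, 182 at Kdr, 179 at Mesp1 and 156 at Pax2. The regions were narrow for their place. They were 347 bp wide at Gsc (chr12:104473049-104473395), 305 bp at Mesp1 (chr7:79793415-79793719), 329 bp at Pax2 (chr19:44755646-44755974) and 377 bp at Kdr (chr5:75978211-75978587). All 4 lay below the first quartile of the 8903 regions on protein-coding starts, whose median was 689 bp with quartiles of 484 and 903 bp. Among those regions, 8.87% were as narrow as that of Mesp1 or narrower, and 14.4% as narrow as that of Kdr or narrower.

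**Figure D1:**
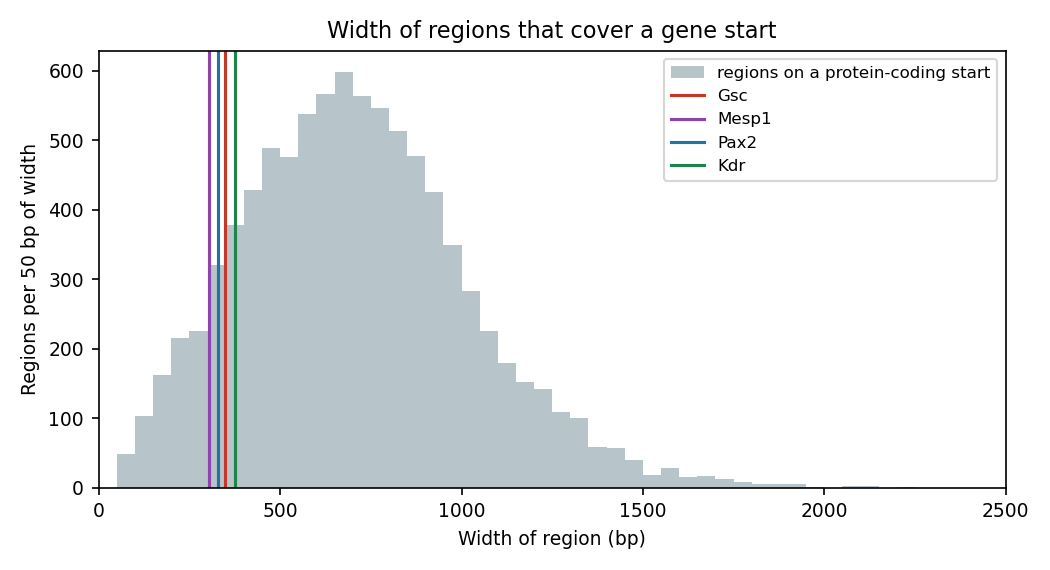
Width of the 8903 regions that cover an annotated start of a protein-coding gene (grey, number of regions per 50 bp of width), with the widths of the regions on the starts of Gsc, Mesp1, Pax2 and Kdr as lines. The 4 lines lie between 305 and 377 bp, left of the median of 689 bp.

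The other 3 genes with an annotated start, T, Msgn1 and Tbx6, had no base of their promoter inside a region. They are printed for contrast, here with capitals for the matches to the motifs described below.
T (chr17:8434173-8434472, plus strand): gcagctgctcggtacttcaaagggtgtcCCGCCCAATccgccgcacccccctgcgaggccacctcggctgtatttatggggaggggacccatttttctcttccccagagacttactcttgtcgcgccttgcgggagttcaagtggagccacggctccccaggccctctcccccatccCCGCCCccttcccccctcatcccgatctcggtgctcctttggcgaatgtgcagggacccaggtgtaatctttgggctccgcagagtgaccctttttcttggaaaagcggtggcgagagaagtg
Msgn1 (chr12:11208899-11209198, minus strand): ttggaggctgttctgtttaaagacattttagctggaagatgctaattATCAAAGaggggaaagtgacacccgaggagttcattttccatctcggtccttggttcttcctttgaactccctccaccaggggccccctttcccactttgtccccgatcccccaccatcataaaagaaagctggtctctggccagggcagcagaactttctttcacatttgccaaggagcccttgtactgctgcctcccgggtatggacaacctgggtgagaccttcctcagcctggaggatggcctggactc
Tbx6 (chr7:126781233-126781532, plus strand): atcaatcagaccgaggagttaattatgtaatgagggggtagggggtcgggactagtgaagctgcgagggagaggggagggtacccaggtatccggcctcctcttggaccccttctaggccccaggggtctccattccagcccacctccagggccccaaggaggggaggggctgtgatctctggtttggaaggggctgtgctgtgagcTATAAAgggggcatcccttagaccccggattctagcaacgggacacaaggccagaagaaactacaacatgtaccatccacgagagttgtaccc

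The 3 uncovered starts differed in how near a region came. At T the nearest region ended 266 bp upstream of the start (chr17:8434085-8434157). It was 73 bp wide, the minimum width of the list. It also lay inside the predicted gene LOC115486424, which overlaps the start of T, and 371 bp from an end of that gene. At Tbx6 the nearest region was again 73 bp wide and 688 bp upstream (chr7:126780723-126780795), and closer, at 213 bp, to an end of the neighbouring gene Ypel3. At Msgn1 the nearest region was 7.54 kb upstream, 412 bp wide (chr12:11216487-11216898). Taken within 1 kb of any annotated start, a region was present at 6 of the 7 genes, all but Msgn1, against 62.5% of protein-coding genes with a start. At T and Tbx6 this count rests on the 73 bp regions alone.

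Covered and uncovered starts were both found at low and at higher CpG content. This is given as the number of CpG over the number expected from the C and G content of the 300 bases. Over the starts of all protein-coding genes, in 5 classes of equal size by rising CpG content, a region lay on 2.94%, 16.9%, 63.7%, 82.3% and 81.8% of starts. Gsc, with 0.934, was in class 5 and covered. Start 2 of Pax2, with 0.812, was covered, while start 3, with 0.789 in the same class, was 932 bp from a region and start 1, with 0.410, was 9.05 kb from one. Kdr, with 0.689, was covered and T, with 0.607, was not, though both lay in class 3. Msgn1, with 0.197, and Tbx6, with 0.286, were uncovered in class 2. Mesp1 had the lowest value of these 9 starts, 0.174 with 4 CpG, and was covered in class 1, in which 125 of 4254 starts were.

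**Figure D2:**
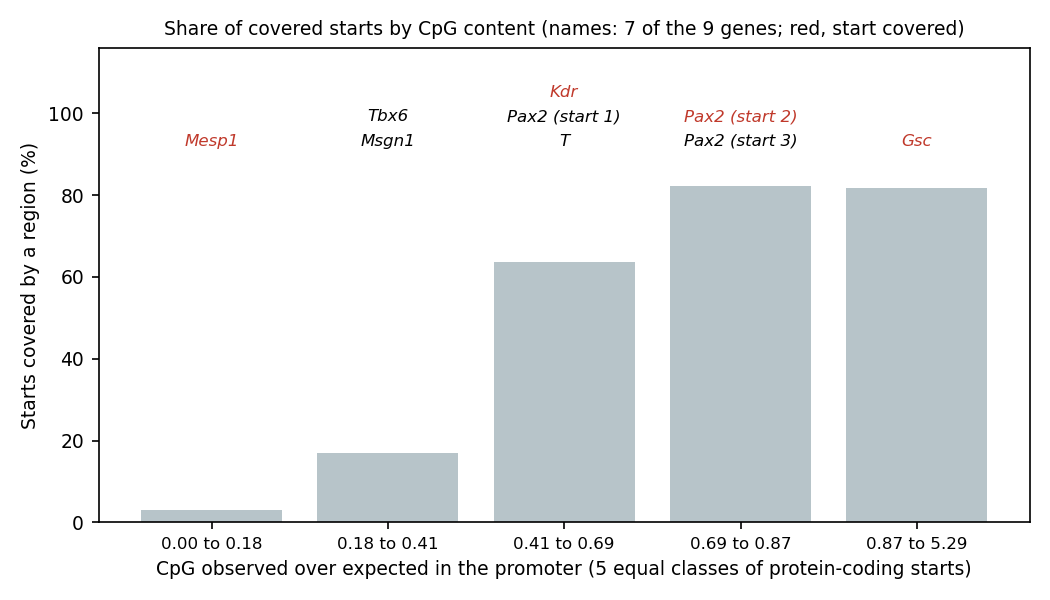
Share of annotated protein-coding starts covered by a region (bars, %), in 5 classes by CpG observed over expected in the promoter, with the 9 starts of 7 of the genes named above their class (red, covered; black, not covered). Mesp1 was covered in class 1, the lowest, where 2.94% of starts were.

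Motifs of factors that act in the streak were looked for in the promoters on both strands. The T-box core GGTGTGA, bound by T, Eomes and Tbx6, was in 3.68% of the 21263 protein-coding promoters. The core CTTTGAT, bound by the TCF/LEF factors that carry Wnt signals, was in 3.22%. Mixl1 and Meox1 could not be searched. Among the 9 promoters of the other 7 genes, the T-box core was found at Mesp1 and the TCF/LEF core at Mesp1 and Msgn1. The Mesp1 promoter held both inside its accessible bases, the TCF/LEF core at -31 to -25 and the T-box core, on the reverse strand, at 6 to 12, counted from the start as 1. These stretches are printed with the motif in capitals, and are part of the Mesp1 promoter above.
Mesp1, T-box core (chr7:79793567-79793596, minus strand): aggggcccgctTCACACCtagggctcagga
Mesp1, TCF/LEF core (chr7:79793603-79793632, minus strand): gctcgagccggCTTTGATatgctgatgaat

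In the uncovered Msgn1 promoter the TCF/LEF core was on the reverse strand at -203 to -197. The FOXH1 core AATCCACA, of a factor that works with Nodal signals, was in 0.776% of promoters and was not found in the promoters of the 7 genes searched. Of general promoter elements, the GC box GGGCGG was in 46.2% of promoters and was found at T, Gsc, Kdr and starts 2 and 3 of Pax2. The TATA box TATAAA, in 12.6% of promoters, was found at Gsc, at -164 to -159, and at Tbx6, at -43 to -38. CCAAT, in 38.2% of promoters, was found at T, where it shares bases with a GC box, and at Mesp1. A match is a run of letters and not a measured binding site.

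With the outer limits of the gene in place of its annotated starts, which can be done for all 9 genes, 5 of 9 had a region within 1 kb of a limit, namely T, Gsc, Mesp1, Tbx6 and Kdr. The share over all protein-coding genes was 62.0%. Without the regions at the minimum width, T and Tbx6 were lost and 3 of 9 remained, against 61.7% of protein-coding genes. Pax2 was absent from the count because its covered start lies 9.05 kb inside the gene. A region touched the body of 5 of the 9 genes, Gsc, Mesp1, Meox1, Pax2 and Kdr, against 71.3% of protein-coding genes.

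Within 50 kb, the 9 genes had between 2 and 12 regions, with a median of 7, the same as the median over all protein-coding genes (quartiles 3 and 10). Pax2 had 12, Tbx6 11, Gsc 10, Mesp1, Msgn1 and Meox1 7 each, T 5, Kdr 3 and Mixl1 2. The 3 genes above the median were Pax2, Tbx6 and Gsc, and 42.4% of protein-coding genes were above it. Since 3 genes stood exactly at the median, this count went to 6 when the minimum-width regions were left out and the median gene had 6 regions. Windows differ in length with the gene, from 101 kb for Msgn1 to 192 kb for Pax2. Per Mb of window, Tbx6 had 106 regions and Gsc 98.0, while Pax2, the first by number, had 62.6, Mesp1 69.1 and Msgn1 69.6. Meox1 had 59.9, T 46.3, Kdr 20.5 and Mixl1 19.2. The median was 62.6 per Mb, against 46.8 over protein-coding genes (quartiles 24.4 and 76.0), and Tbx6 and Gsc alone were above the upper quartile. Widths were like those of the whole list. Near the 9 genes the median width was 285 bp and the middle range ran between quartiles of 173 and 402 bp. The whole list had a median of 281 bp and quartiles of 152 and 498 bp. Regions of the minimum width were 3 of 64 (4.69%), against 3.97% of the list.

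**Figure D3:**
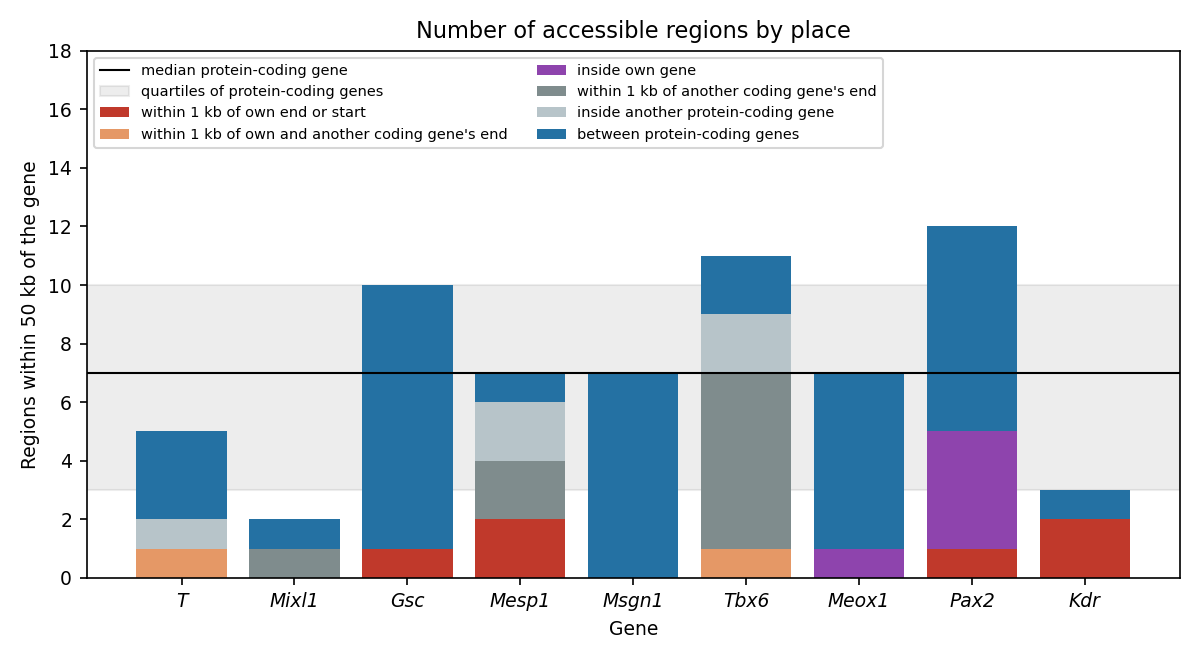
Number of regions within 50 kb of each gene, stacked by place, with the median (line, 7) and quartiles (grey, 3 and 10) of protein-coding genes. Tbx6 differs from Pax2 and Gsc in that most of its regions lie at or inside other protein-coding genes.

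Places were taken from protein-coding genes. Of the 64 regions, 37 lay between such genes, 5 inside one of the 9 genes away from its starts and ends, and 5 inside another protein-coding gene. Of the 37, 7 were inside an annotated lncRNA gene, 4 near Gsc and 3 near Msgn1, and 30 were outside every annotated gene. Another 9 regions lay within 1 kb of an end of another protein-coding gene, 2 within 1 kb of both that gene's and the named gene's end (the 73 bp regions of T and Tbx6), and 6 at a start or end of the named gene alone. How many of the 53 regions away from the ends of other protein-coding genes act on the 9 genes is not known from a list of positions. Regions over 1 kb from every outer limit of a protein-coding gene had a median of 4 per window, as over all protein-coding genes. The places were not counted over the whole list, so these counts are not read as a trait of the 9 genes.

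Among the streak factors, T had 5 regions, of 685, 152, 73, 320 and 572 bp in the order of the chromosome. The 685 bp region lay 25.2 kb upstream, inside the neighbouring gene T2, and the 152 bp region 4.26 kb upstream. The 320 and 572 bp regions lay 20.9 and 26.1 kb beyond the far end of T, with no other annotated gene in that stretch. The body of T itself, of 8.07 kb, held no region.

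Gsc, which encodes a homeodomain factor of the organizer, had no other protein-coding gene within 50 kb, and 7 of its 10 regions lay on the downstream side, 17.9 to 48.0 kb from the gene. The widest of them had 741 bp (chr12:104433027-104433767), 37.4 kb from the gene, with a region of 117 bp beyond a gap of 729 bp. That of 117 bp and one of 227 bp were inside the lncRNA gene Gm40562. Upstream, a region of 328 bp was 2.57 kb from the gene and one of 180 bp was 34.8 kb from it, both inside the lncRNA gene Gm10000, and the 347 bp region covered the start. The protein-coding gene nearest to the downstream end of the group was Serpina3n, whose nearer end was 8.81 kb from the outermost region.

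Mixl1, a homeodomain gene of the streak, had the fewest regions. Its nearest lay 23.2 kb from the gene, a distance reached or passed by 10.8% of protein-coding genes. That region had 268 bp (chr1:180720249-180720516). The only other one, of 877 bp, covered an end of Acbd3, and no region was listed on the other side, toward Lin9. Of the other genes, Msgn1 was the farthest from its nearest region, at 7.54 kb.

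Mesp1 and Mesp2, a pair of bHLH genes of which Mesp2 sets somite borders, lie side by side. Mesp1 had 2 regions within its 1.35 kb, that on the start and one of 92 bp, 758 bp inside the gene from the start and 500 bp from its far end. Mesp2 fell within the window of Mesp1, and a region of 182 bp lay 356 bp from its nearer end (chr7:79811083-79811264). A 103 bp region stood between the genes, 5.56 kb upstream of Mesp1. The widest region of the window, of 760 bp, was inside Wdr93, 19.9 kb downstream of Mesp1, and another of 191 bp was inside the same gene 11.4 kb away. The outermost, of 304 bp, lay on an end of Pex11a.

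The presomitic genes Msgn1 and Tbx6 differed in the makeup of their windows. All 7 regions of Msgn1, a bHLH gene of 0.567 kb, lay between protein-coding genes, and 3 of them, of 178, 266 and 857 bp, inside the lncRNA gene 9530020I12Rik. On the upstream side they were 412, 215 and 123 bp wide, at 7.54, 13.7 and 17.3 kb from the gene. On the downstream side they were 178, 266, 857 and 291 bp wide, at 9.55, 12.0, 20.2 and 29.4 kb. The 857 bp region (chr12:11187362-11188218) was the widest, and the protein-coding gene nearest to it other than Msgn1 was Kcns3, 36.2 kb away. Tbx6, in contrast, shared its window with 7 other protein-coding genes, and 7 of its 11 regions were within 1 kb of one of their ends. The widest, of 903 bp, lay inside Aldoa, 1.14 kb from its nearer outer limit, and the next, of 841 bp, on an end of Ppp4c. A region of 439 bp covered an end of Ypel3, 2 regions of 465 and 143 bp lay at an end of Mapk3, and 564 bp lay 486 bp from 4930451I11Rik. Another, of 165 bp, lay inside Tlcd3b. With regions at the ends of other genes left out, Tbx6 kept 4.

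Meox1, a homeobox gene of the somites, had its regions on one side. A 109 bp region lay inside the gene, 4.09 kb from its nearer limit, and the other 6 lay above the gene in the direction of the build, at 2.31 to 33.6 kb. None was listed within 50 kb below it. The nearest of the 6 and the farthest were the widest, with 640 bp (chr11:101896662-101897301) and 639 bp (chr11:101927981-101928619). No other protein-coding gene was within 50 kb of Meox1, and the one nearest to the 640 bp region was Sost, at 65.2 kb.

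Pax2, a paired-box gene, had 5 regions within its 91.7 kb. They were the 329 bp region on start 2, one of 73 bp at 2.91 kb from the nearest start, one of 144 bp, and a pair of 128 and 230 bp separated by 218 bp, 1.75 to 2.20 kb from the far end. The pair lay just beyond an end of the lncRNA gene 1700039E22Rik, which is inside the span of Pax2. Upstream of the outermost start, the widths were 686, 316, 610 and 222 bp, at distances of 19.7, 26.0, 26.7 and 49.5 kb, those of 686 and 610 bp being the widest of the window. Downstream of the gene the widths were 247, 398 and 223 bp, at distances of 4.42, 44.3 and 49.4 kb. No other protein-coding gene was within 50 kb of Pax2, and Hif1an was 149.98 kb from the 686 bp region.

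Kdr, the receptor, had 2 regions close to its start and almost none elsewhere. The second of them had 278 bp (chr5:75977619-75977896), lay 559 bp into the gene from the start, and was separated by 314 bp from the region on the start. Both regions also lay inside Gm32727, an annotated gene not counted as protein-coding. The rest of the gene, of 46246 bp in all, held none. The remaining region of the window, of 352 bp, lay 36.0 kb downstream. The other protein-coding gene nearest to the region on the start was Srd5a3, at 161.7 kb. The outermost limit of Kdr lies beyond its annotated start, so the region on the start was 485 bp from that limit.

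**Figure D4:**
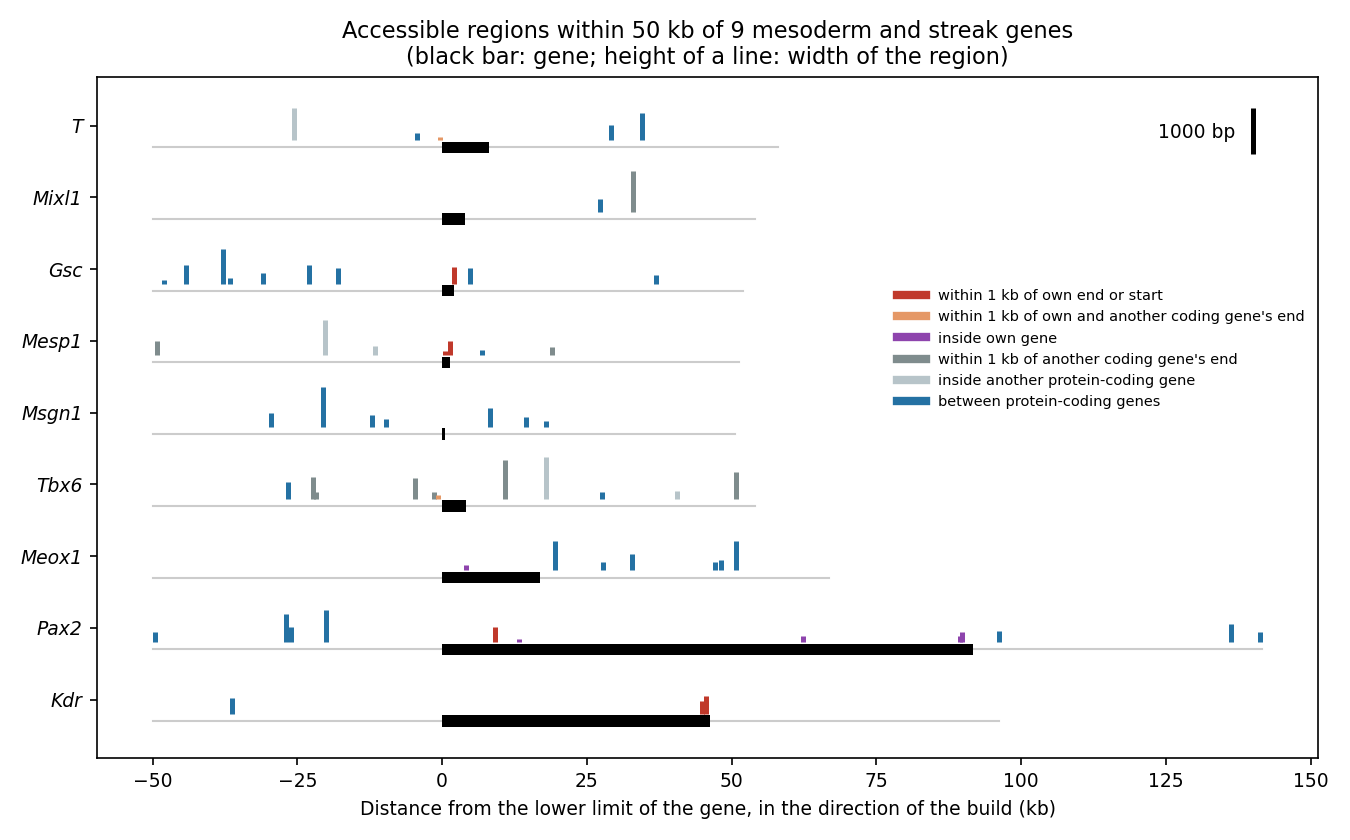
Regions within 50 kb of each gene, at their distance in kb from the lower limit of the gene in the direction of the build (black bar, gene; line height, region width; colour, place by protein-coding genes). Meox1 has its regions on one side, Gsc 7 of 10 below the gene, and Mixl1 none within 23.2 kb.

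Of the 55 gaps between neighbouring regions inside the windows, 8 (14.5%) were of 1 kb or less, against 12.7% over the list. They were found at Tbx6 and Pax2, with 2 each, and at Gsc, Mesp1, Meox1 and Kdr, with 1 each.

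Other genes of the streak and mesoderm were counted for comparison. Of 43 such genes, 31 (72.1%) had a region within 1 kb of an outer limit, against 62.0% of protein-coding genes, and 9 of the 30 with an annotated start (30.0%) had one on it, against 53.3%. The median was 7 regions within 50 kb. All 6 streak transcription factors had a region at a limit, among them Eomes, a T-box factor, and Foxh1, with 9 and 15 regions within 50 kb, while Evx1 and Lhx1 had 3 each. At Eomes the region nearest to the start was 288 bp away. Of 6 streak signals, 4 had a region at a limit. Fgf4 had 15 regions within 50 kb and was the only one of them with a covered start. Nodal had 12 regions and Wnt3 had 7, with one 46 bp from its start. Wnt3a had none within 8.87 kb of the gene. Of 8 segmentation genes, 7 had a region at a limit, and the starts of Dll1, Lfng and Ripply2 were covered. Of 7 paraxial genes, 6 had one at a limit and of the 4 with an annotated start none was covered, the nearest being Foxc1 at 35 bp. Of 9 genes of intermediate and lateral mesoderm, 6 had a region at a limit, with Isl1 and Tbx20 covered at the start. Of 7 vascular and blood genes, 2 had one at a limit. Of the 6 with an annotated start, 4 had one within 1 kb of a start, against 62.5% of protein-coding genes with a start. Runx1 and Gata2 were covered at the start. The median for these 7 genes was 8 regions, with up to 14 at Etv2 and 13 at Flt1, the receptor gene related to Kdr.

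The 9 genes were last set beside lists of other lineages. The median was 7 within 50 kb for the 9 genes, 5 for 10 endoderm genes, 5 for 11 neural genes and 11.5 for 12 pluripotency genes. Counts ran between 2 and 12 for the 9 genes, 1 and 13 for endoderm, 4 and 11 for neural and 7 and 19 for pluripotency genes, so all 4 ranges overlapped. Above the median protein-coding gene were 3 of the 9 genes, 2 of 10 endoderm, 4 of 11 neural and 11 of 12 pluripotency genes. The share over all protein-coding genes was 42.4%. A region lay on a start of 4 of 7 of the named genes, 2 of 7 endoderm, 3 of 9 neural and 7 of 9 pluripotency genes with an annotated start. The share over all protein-coding genes with a start was 53.3%. No test of these differences was made, because the genes were chosen with results of this list known.

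**Figure D5:**
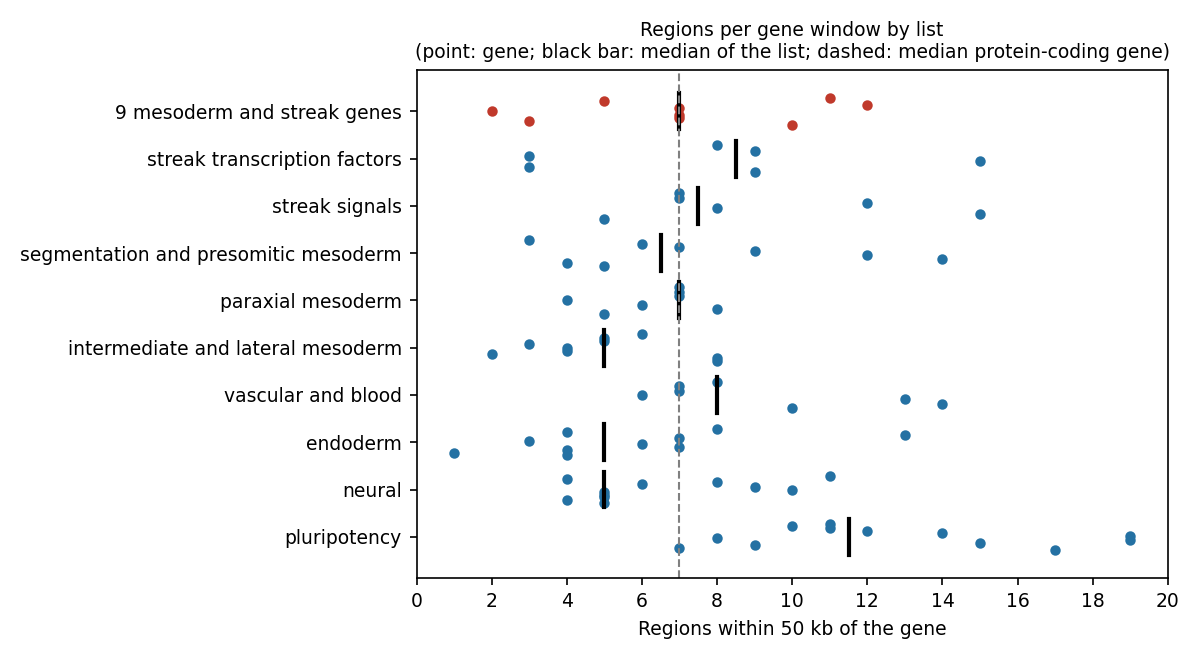
Regions within 50 kb of each gene (points), by list, with the median of each list (black bar) and the median protein-coding gene (dashed line, 7). The 9 genes run between 2 and 12 regions and overlap every other list shown.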

How the data were processed

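The series measured chromatin accessibility by ATAC-seq in 8 libraries of mouse induced pluripotent stem cells, in 4 groups of 2. The authors deposited 1 list of regions for the whole series, with 3 columns (chromosome, start, end in bp) and no value for a library. Per the submitters' processing notes, cutadapt, Bowtie2, Picard, SAMtools, bedtools and MACS2 2.1.1 were used on GRCm38 (mm10). Not given in the sources used here are their settings, any shift of reads for Tn5 and how the libraries were joined. A region open in 1 library may count like a region open in all. As the molecule the labels name total RNA, which goes against their titles and protocol. Titles and protocol were followed.

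Starts were counted from 1. Regions were set against RefSeq gene limits (GRCm38.p6, 49943 genes) and promoter sequences of the same build, matched by gene ID, with Python 3.11.15, pandas 2.3.3 and numpy 2.4.6. An overlap was at least 1 bp, and distal meant over 1 kb from every outer limit of a protein-coding gene. Starts inside a gene did not count, so the region covering a start of Pax2 and the 278 bp region of Kdr were distal. Overlap counts were tested on simulated data, with 0 disagreements among 7200 direct counts. No test was made. The genes, lists and motifs were chosen with earlier results of this list known. Named are the 9 genes, the genes with an end within 1 kb of one of their regions, the gene nearest to the widest region of each window, and examples from each list. Whether a library was deeper than another is unknown.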

Additional observations from a re-analysis of the deposited data

How the results depend on the processing

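No paired analysis was possible because the libraries have no values of their own in the list, which also meant that no replicate could be left out. With windows of 25 kb in place of 50 kb, the 64 regions became 41, the median of 7 became 4 and the 49 distal regions became 29. With windows of 100 kb they were 117, 13 and 87. The median protein-coding gene had 4 regions with windows of 25 kb and 11 with windows of 100 kb. The number of genes above the median protein-coding gene was 3 of 9, and 42.4% of protein-coding genes were above it. It was 4 with windows of 25 kb, 6 with windows of 100 kb and 6 without the minimum-width regions. It was 5 without regions under 150 bp, 5 without regions at the ends of other genes and 6 against genes of all types. The share of all genes above the median was not counted in these other settings. The 5 genes with a region at an outer limit were 3 without the minimum-width regions and 3 without those under 150 bp, in both cases Gsc, Mesp1 and Kdr. The shares over protein-coding genes were 61.7% and 59.2% in these settings, against 62.0% with all regions. Of 39 alternatives in all, 26 stayed within 1.5 times the reported count. The starts counted with the outermost start alone, and the covered starts without narrow regions, were chosen after seeing the data. The covered starts were 3 with the outermost start alone, without Pax2, and 4 in both sets without narrow regions. The share of all protein-coding genes with a covered start was not counted in these settings. The promoter table is not complete, so counts over starts refer to the genes it holds.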
